A study of Mus musculus with 6 samples.

Results

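Cholesterol synthesis was described through 8 genes in osteocytes, the cells embedded in bone matrix, of mice with and without estrogen receptor alpha (ERα, encoded by Esr1) in osteocytes. The 8 genes are Hmgcs1, Idi1, Fdps, Fdft1, Sqle, Lss and Cyp51, which encode enzymes of the pathway, and Insig1, which encodes a sterol sensor. They were taken by name, with every probe set that the platform annotation assigns to exactly 1 of them. These are 21 of the 45101 probe sets on the array and 8 of the 18193 genes with a probe set of a single gene. The genes were chosen with earlier results of these data known. Values of the 8 beside those of all genes are therefore a description and no test. None of the 8 encodes a lipoprotein receptor, so the uptake of cholesterol was read only through other genes below.

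RNA was measured on 6 Affymetrix GeneChip arrays, 3 of controls and 3 of knockouts. The control arrays are labelled wild-type littermates, while the extraction protocol names them ERαflox/flox; the knockouts are ERαΔOcy/ΔOcy, labelled as lacking ERα in osteocytes only. Both genotypes carried Dmp1-GFP, a green fluorescent reporter for osteocytes, and all mice were female C57/BL6, 10 to 12 days old by the labels (the protocol says 10). The sources used here give neither the Cre driver nor the Cre status of the controls. Effects of Cre and of ERα loss therefore cannot be told apart. Calvarial cells from fractions 4 to 6 of 6 digestions were sorted for green fluorescence. The protocol speaks of pooled calvarial tissue and the design text of RNA that was not pooled, so p-values measure the spread between these arrays, which may not be that between mice. The comparison serves to find transcripts of osteocytes that depend on ERα.

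Cells make cholesterol from acetyl-CoA. The first arm leads through mevalonate to farnesyl diphosphate, which is also used for ubiquinone, dolichol and protein prenylation; the second joins farnesyl units to squalene, closes the ring to lanosterol and trims it to cholesterol. The genes of both arms are textbook targets of SREBP2, a transcription factor held in the endoplasmic reticulum by SCAP and INSIG proteins while sterols are plentiful and cut free by the proteases S1P and S2P when sterols run low. Insig1 is itself such a target, so its product closes a feedback loop.

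SREBP binds sterol regulatory elements, usually beside sites for NF-Y (CCAAT boxes) and Sp1 (GC boxes), and promoter sequences are shown here because these sites are what the genes are known to share. RefSeq promoter windows, 250 bases before to 50 after an annotated start (GRCm38.p6), were found for 5 of the 8 genes; Sqle, Fdft1 and Fdps had no entry. The first sequence is the upstream part of the Hmgcs1 window, chosen because it alone holds an exact match of the sterol element TCACCCCAC. The others are short stretches around a CCAAT box. Capitals mark TCACCCCAC and CCAAT, which reads ATTGG where it lies on the opposite strand.
Hmgcs1, chr13:119690101-119690350, + strand: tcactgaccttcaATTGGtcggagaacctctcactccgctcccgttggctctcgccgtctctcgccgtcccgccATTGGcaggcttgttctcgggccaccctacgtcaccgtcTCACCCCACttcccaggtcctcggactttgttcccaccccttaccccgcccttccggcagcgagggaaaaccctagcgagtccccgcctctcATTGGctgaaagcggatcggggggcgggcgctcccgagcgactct
Idi1, chr13:8885543-8885583, + strand: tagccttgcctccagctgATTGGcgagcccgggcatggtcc
Lss, chr10:76531525-76531565, + strand: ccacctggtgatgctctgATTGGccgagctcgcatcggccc
Cyp51, chr5:4104704-4104744, - strand: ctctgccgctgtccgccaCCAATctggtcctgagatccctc
Insig1, chr5:28071178-28071218, + strand: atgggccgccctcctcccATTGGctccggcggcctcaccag

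The sterol element TCACCCCAC was searched on both strands and was found in 1 of the 5 windows, that of Hmgcs1, from -137 to -129 relative to the start, against 0.551% of all 32851 windows. With an A before it, the element was found in 0 of the 5 and in 0.0913% of all windows. CCAAT was found in 5 of 5 windows, against 37.4% of all, and the GC box GGGCGG in 5 of 5, against 35.7%. The Hmgcs1 window held 4 CCAAT boxes, 1 of them after the start and not printed, that of Idi1 held 2, and those of Lss, Cyp51 and Insig1 held 1 each. These are exact matches of letters and say nothing of binding in these cells. Variants of the sterol element were not searched, so a window without a match may still hold one.

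Markers of the labelled cell type were read in both groups. Dmp1 had deposited signals of 6083.5 to 7983.3 in control and 5636.7 to 7767 in knockout arrays, and Phex 1775.9 to 2071.5 and 1896.1 to 2385. Sost was dim, at 54.4 to 147.3 and 114.3 to 132.4, as was Mepe, at 14.3 to 48.8 and 51.4 to 60.7. Fgf23 was no higher than 10.4 on any array. Osteoblast markers were bright as well, with Col1a1 at 10817.9 to 11966.3 in control and 12093 to 12634.3 in knockout arrays. These signals do not tell osteocytes from osteoblasts. The 3 probe sets of Esr1 differed by -0.86, -0.20 and -0.13 between knockout and control on the log2 scale, and with the deleted part of the gene not given they do not check the labels. Array medians of the deposited signal ran from 18.7 to 28.6. Control replicate 2 stood apart, with a summed signal of the 14 skeletal muscle markers of 226.4, while the other 5 arrays lay between 4734 and 38506.3.

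All 8 genes had a higher mean in knockout than in control arrays, by 0.10 to 0.44 on the log2 scale, and none passed the test across all genes. Array values are given in the order of replicates 1, 2 and 3. They are log2(signal + 16) after quantile normalisation, from the brightest probe set of each gene, and differences are on that scale, which understates the change of dim genes. The median difference over the 8 genes was 0.34, beside -0.01 over all 10916 genes tested, of which 48.3% lay above control. With the signal as deposited, not normalised between arrays, 76.4% of all genes lay above control, their median was 0.14 and that of the 8 genes was 0.48. The smallest adjusted p of the 8 was 0.402 (limma, Benjamini-Hochberg over all genes), that of Hmgcs1. Over the whole table limma called 0 genes higher (0% of those tested) and 0 lower at the adjusted threshold of 0.05, and 1151 had an unadjusted p under 0.05, 10.5% of those tested; among the 8 this was 1 gene. The 3 knockout arrays lay above all 3 control arrays for 3 of the 8, Hmgcs1, Sqle and Lss, where 9.23% of all tested genes showed this. Without control replicate 1 this held for 6 of the 8 and for 15% of all tested genes, and without knockout replicate 1 for 5 of the 8 and 14.1% of all. Without knockout replicate 2 it held for 2 of the 8 and 12.7% of all, and the median of the 8 was 0.20. It held for 3 of the 8 without control replicate 2 (16.1% of all) and without control replicate 3 (13.6%). Without knockout replicate 3 it held for 4 of the 8 (13%). Without control replicate 2, limma called 86 genes higher (0.788% of those tested) and 212 lower (1.94%), none of them among the 8. At such shares, no call among 8 genes says little about them. With 3 arrays a group, the smallest 2-sided p of an exact permutation test is 0.1.

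**Figure D1:**
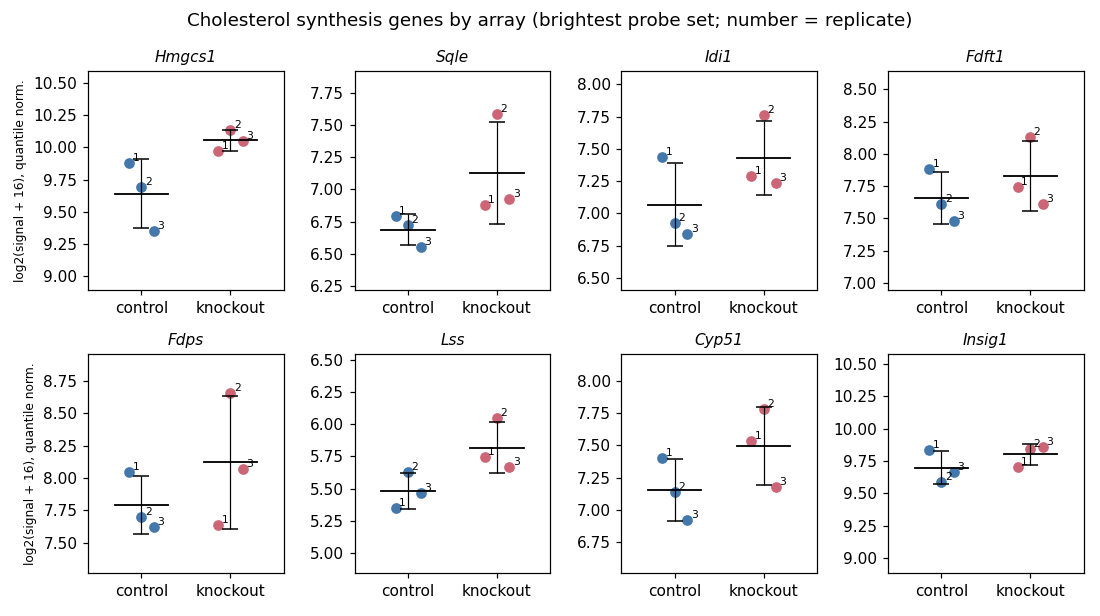
Level of each of the 8 genes, as log2(signal + 16) after quantile normalisation, in control (blue) and knockout (red) arrays. Points are arrays with their replicate number, lines are means with the SD (n = 3 each), and every panel spans the same range of log2 units; knockout replicate 2 is the highest array for 7 of the 8 genes.

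In the mevalonate arm, Hmgcs1, the synthase that makes HMG-CoA, had 9.87, 9.70 and 9.35 in controls and 9.97, 10.14 and 10.05 in knockouts. The groups did not overlap, though knockout replicate 1 lay only just above control replicate 1. The difference was 0.41 ± 0.14 (SE), a 1.33-fold higher mean, with a 95% interval of 0.09 to 0.74, and it was 0.27 without control replicate 3. Hmgcs1 was read by 5 probe sets. The 3 brightest gave 0.41, 0.42 and 0.39, each with groups that did not overlap, the next gave 0.0055 ± 0.16 and the dimmest 0.55 ± 0.27 (SE). The brightest has an x in its identifier, which in the maker's naming marks probes that can also bind other transcripts; the other two of the 3 have no such mark. The 3 brightest had deposited signals of 475.7 to 1299.7, and the next one 124.2 to 176.4.

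Idi1, the isomerase of isopentenyl diphosphate, had 7.43, 6.93 and 6.84 in controls and 7.29, 7.76 and 7.24 in knockouts. Control replicate 1 lay above knockout replicates 1 and 3, so the groups overlapped. The difference was 0.36 ± 0.20 (SE), with a 95% interval of -0.11 to 0.84, and it was 0.19 without knockout replicate 2. The second probe set of Idi1 gave 0.49 ± 0.19 (SE) with groups that did not overlap, and its p adjusted over all probe sets was 0.534 (limma).

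Fdps, which makes farnesyl diphosphate at the branch point to the isoprenoids, had 8.05, 7.70 and 7.62 in controls and 7.63, 8.66 and 8.07 in knockouts. It was the most scattered of the 8 among knockout arrays (SD 0.51, n = 3), with replicate 1 at the level of the lowest control. The difference was 0.33 ± 0.25 (SE), with a 95% interval of -0.26 to 0.92, and it was 0.06 without knockout replicate 2. The other probe set of Fdps had deposited signals of 0.2 to 0.4 on all 6 arrays, at the bottom of the scale.

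In the sterol arm, Fdft1, squalene synthase, had 7.88, 7.61 and 7.48 in controls and 7.74, 8.13 and 7.61 in knockouts, with overlapping groups. The difference was 0.17 ± 0.17 (SE), with a 95% interval of -0.22 to 0.56, and it was 0.02 without knockout replicate 2. This brightest probe set also has the x mark. The next brightest, without that mark, gave 0.41 ± 0.16 (SE), with a p adjusted over all probe sets of 0.539 (limma) and control replicate 1 just above knockout replicate 3. The remaining 2 probe sets of Fdft1 had deposited signals no higher than 24.1 and gave -0.34 and 0.08.

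Sqle, squalene epoxidase, a rate-limiting step of the sterol arm, had 6.79, 6.72 and 6.55 in controls and 6.88, 7.59 and 6.93 in knockouts. The groups did not overlap, and knockout replicate 2 stood well above the other knockout arrays. Sqle had the largest difference of the 8, 0.44 ± 0.20 (SE), a 1.36-fold higher mean with a 95% interval of -0.02 to 0.91 (limma adjusted p = 0.490). It was 0.21 without knockout replicate 2.

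Lss, lanosterol synthase, had 5.35, 5.63 and 5.47 in controls and 5.75, 6.04 and 5.67 in knockouts, which did not overlap. The difference was 0.33 ± 0.16 (SE), with a 95% interval of -0.04 to 0.71 (limma adjusted p = 0.516). Its deposited signals of 24.3 to 46.7 are close to the 16 added before the logarithm, and the other 2 probe sets of Lss, as dim or dimmer, gave 0.18 and -0.03 with overlapping groups.

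Cyp51, lanosterol demethylase, had 7.40, 7.14 and 6.92 in controls and 7.53, 7.78 and 7.18 in knockouts. Knockout replicate 3 lay within the control range. The difference was 0.34 ± 0.19 (SE), with a 95% interval of -0.09 to 0.78, and it was 0.20 without knockout replicate 2. The second probe set gave 0.41 ± 0.16 (SE) with groups that did not overlap.

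Insig1, the sterol sensor that retains SCAP, had 9.84, 9.59 and 9.67 in controls and 9.71, 9.84 and 9.86 in knockouts. The groups overlapped, and the difference of 0.10 ± 0.10 (SE) was the smallest of the 8, with a 95% interval of -0.13 to 0.33. It was 0.049 without control replicate 2. Its 1 probe set was among the bright ones, with deposited signals of 690.5 to 1146.1.

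Over all 21 probe sets of the 8 genes, 18 lay above control and 3 below, beside 48% above among all probe sets of a single gene. The 3 below were dim probe sets of Fdft1, Fdps and Lss. Of the 13 probe sets with a mean deposited signal of 64 or more, a limit chosen after the values were seen, 13 lay above control (49% of all such probe sets). Of these 13, 6 had groups that did not overlap, where 10% of all such probe sets did so as higher. Probe sets of 1 gene read the same RNA and are not independent.

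**Figure D2:**
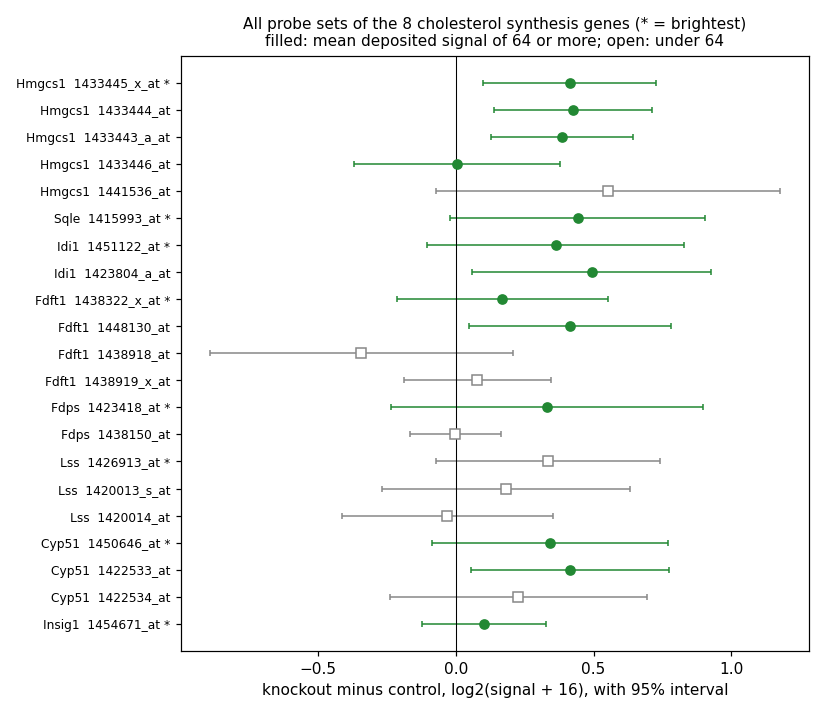
Difference between knockout and control, on the log2(signal + 16) scale, for each of the 21 probe sets, with 95% intervals from limma; filled points have a mean deposited signal of 64 or more. The 13 filled points lie at or right of 0, from 0.0055 to 0.49.

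Over the 6 arrays the levels of the 8 genes were correlated, less so once the arrays farthest out were left out. Knockout replicate 2 was the highest array for 7 of the 8 genes and knockout replicate 3 for Insig1, while control replicate 3 was the lowest for 6. The mean of the 8 after centring each over the 6 arrays was 0.024, -0.18 and -0.32 in the controls, and 0.0087, 0.44 and 0.020 in the knockouts. On this mean the groups overlapped: control replicate 1 lay at the level of knockout replicates 1 and 3, and the distance between the genotypes came from control replicates 2 and 3 and knockout replicate 2. Pearson's r over the 6 arrays was above 0 for 28 of 28 gene pairs, with a median of 0.77, and these pairs share arrays and scaling. With the genotype means removed the median was 0.69, and 27 of 28 pairs were above 0. Without knockout replicate 2 the median was 0.59, and 24 of 28 pairs were above 0. Without knockout replicate 2 and control replicate 3, the arrays farthest out, the median over the remaining 4 arrays was 0.36, 21 of 28 pairs were above 0 and the lowest r was -0.72. Over all 6 arrays Insig1 and Lss had the lowest r, 0.20. Among the other tested enzymes of the pathway, described below, the median r over the 6 arrays was 0.21, and 32 of 55 pairs were above 0.

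**Figure D3:**
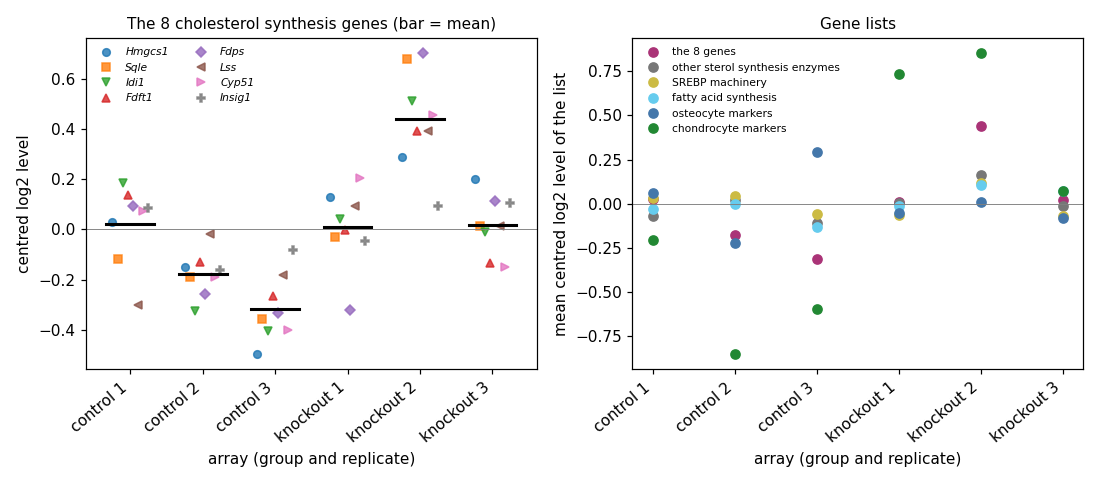
Left, level of each of the 8 genes on each array after centring over the 6 arrays (log2 units), with the mean of the 8 as a bar; right, the same mean for the 8 genes and for other gene lists. The bars run from -0.32 in control replicate 3 to 0.44 in knockout replicate 2.

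Markers of other cell types differed in both directions, and none of those given here passed the threshold. Of 14 chondrocyte markers 12 lay above control, against 48.3% of all tested genes, and 10 had groups that did not overlap as higher, against 9.23%. As lower 1 did so, against 7.76%, and 0 passed. Their mean centred level was -0.21, -0.85 and -0.60 in controls and 0.73, 0.86 and 0.07 in knockouts, and their summed deposited signal was 6140.4 to 8707.8 in control and 9967.1 to 12587.5 in knockout arrays. None of the 14 was listed at 0 on any array. Knockout replicate 2 was the highest array for the chondrocyte mean as for that of the 8 cholesterol genes, while the lowest array differed. Of 9 pericyte and smooth muscle markers 8 lay below control, 3 of them without overlap (7.76% of all tested genes), 0 passed and the median was -0.46. Their summed signal was 15336.4 to 24501.9 in control and 14914.4 to 18018.5 in knockout arrays. Of 6 meningeal and fibroblast markers tested, 5 lay below control, 0 of them without overlap, 0 passed and the median was -0.57. The 1 above, Crabp2, was higher by 0.91 without overlap, as 9.23% of all tested genes were. The sum over all 8 listed was 882.1 to 2935.5 and 1204 to 1695, and no marker of either list was at 0 on any array. The part of other cells in the cholesterol values was not tested, and in sorted bulk RNA a change in the mixture of cells and one in RNA per cell cannot be told apart. Of 11 osteocyte markers tested, 4 lay above control and 7 below, with a median of -0.09. Of the 11, 2 did not overlap as lower, against 7.76% of all tested genes, 0 did so as higher and 0 passed. The 2 without overlap were Dkk1, at -0.70 ± 0.20, and Ptprz1, at -0.21 ± 0.10 (SE). Dmp1 differed by -0.30 ± 0.10, Phex by -0.03 ± 0.08 and Sost by 0.21 ± 0.30 (SE), each with overlapping groups. The mean centred level of the osteocyte markers was lowest in control replicate 2 and highest in control replicate 3. Of 7 osteoblast markers tested, 2 lay above control, 5 below and 0 passed, with a median of -0.08. As higher 1 did not overlap, Alpl at 0.42 ± 0.11 (SE), against 9.23% of all tested genes. As lower 1 did so, Serpinf1 at -0.13 ± 0.06 (SE), against 7.76%.

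Of 14 other listed enzymes of the pathway, 11 were tested and 3 are not analysed here. Of the 11, 9 lay above control, 2 lay below and 0 passed the threshold, with a median of 0.06. Hsd17b7, a ketoreductase late in the pathway, had 6.11, 6.48 and 6.35 in controls and 6.90, 6.94 and 6.91 in knockouts. The groups did not overlap, and the difference of 0.60 ± 0.13 (SE, limma adjusted p = 0.240) was larger than that of any of the 8 genes. It passed without control replicate 2 (adjusted p = 0.0402), where 0.788% of tested genes were called higher and 1.94% lower. The other 3 probe sets of Hsd17b7 gave 0.12, 0.10 and -0.31, and the brightest has the x mark, so the probe sets of this gene disagree.

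Mvd, which makes isopentenyl diphosphate, differed by 0.29 ± 0.19, Msmo1, a sterol methyl oxidase, by 0.23 ± 0.21, and Dhcr7, the last reductase, by 0.21 ± 0.15 (SE). The mevalonate kinases lay on the other side, Mvk by -0.26 ± 0.18 and Pmvk by -0.15 ± 0.11 (SE). With 1 array left out Msmo1 was as low as 0.024 and Mvd 0.16 (both without knockout replicate 2), Dhcr7 0.10 (without control replicate 3), and Mvk as near 0 as -0.085 (without control replicate 2). With the mean of the 8 genes over the 6 arrays Msmo1 and Dhcr7 had r of 0.89 and 0.86, the highest among these other enzymes. Mvk and Pmvk had -0.17 and -0.67, and the remaining ones ran from -0.35 (Nsdhl) to 0.68 (Sc5d). Tm7sf2, Lbr, Nsdhl, Ebp and Sc5d differed by 0.0033, 0.026, 0.058, 0.062 and 0.058.

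**Figure D4:**
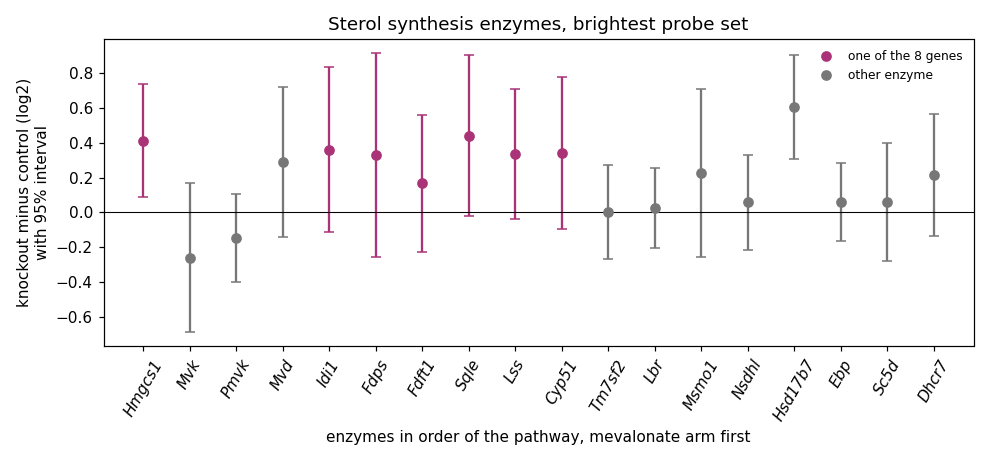
Difference between knockout and control on the log2(signal + 16) scale, with 95% intervals from limma, for 18 enzymes in the order of the pathway; the 7 enzymes among the 8 genes are in purple. From Idi1 to Cyp51 the purple points lie between 0.17 and 0.44, each with an interval that includes 0.

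The machinery that controls these genes went both ways, with 5 of 8 tested genes above control, 3 below, 0 past the threshold and a median of 0.06. Srebf2, which encodes SREBP2, had 6.46, 6.75 and 6.22 in controls and 6.15, 6.52 and 6.21 in knockouts, a difference of -0.18 ± 0.17 (SE) with overlapping groups. Its other probe set gave 0.28 ± 0.16 (SE), so the direction for Srebf2 depended on the probe set. Srebf1, the isoform that mainly serves fatty acid synthesis, differed by 0.08 ± 0.13 and Scap by 0.13 ± 0.17 (SE), and both were below 0 with 1 array left out. Insig2, the second sterol sensor, differed by -0.27 ± 0.12, and Mbtps1, which encodes the protease S1P, by 0.20 ± 0.09 (SE, limma adjusted p = 0.475 for each). For both Insig2 and Mbtps1 the groups did not overlap. Insig2 was below control in 3 of 3 probe sets, and the other 2 probe sets of Mbtps1 gave 0.08 and -0.02. Rnf139 and Rnf145, ubiquitin ligases of the endoplasmic reticulum, differed by -0.26 ± 0.17 and 0.15 ± 0.10 (SE); with 1 array left out they came as near 0 as -0.12 and 0.076.

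Genes of cholesterol uptake and transport inside the cell were read for 10 of 13 listed, and the other 3 are not analysed here. Of the 9 tested, 5 lay above control, 4 below and 0 passed the threshold, with a median of 0.04. Lrp1, a large endocytic receptor of the lipoprotein receptor family, had 9.14, 9.43 and 9.35 in controls and 9.60, 9.56 and 9.49 in knockouts, which did not overlap. Its difference was 0.25 ± 0.10 (SE, limma adjusted p = 0.467), and its other, dim probe set gave 0.05 ± 0.23 (SE). Npc1, which carries cholesterol out of the lysosome, had 7.15, 7.35 and 7.18 in controls and 6.84, 7.02 and 6.88 in knockouts, also without overlap. The difference was -0.31 ± 0.11 (SE, limma adjusted p = 0.414). Scarb1, the receptor for high-density lipoprotein, and Vldlr differed by 0.10 ± 0.10 and -0.12 ± 0.11 (SE); Vldlr was at 0.04 with the deposited scaling, where the median of all genes was 0.14.

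Fatty acid synthesis, which shares SREBP control, had 10 of 13 tested genes above control, 3 below, 0 past the threshold and a median of 0.11. Fasn, fatty acid synthase, had 7.87, 7.99 and 8.02 in controls and 8.46, 8.43 and 8.29 in knockouts. The groups did not overlap, at a difference of 0.43 ± 0.10 (SE, limma adjusted p = 0.274). Scd1, the stearoyl-CoA desaturase, had 8.88, 9.04 and 8.86 in controls and 8.35, 8.54 and 8.48 in knockouts. It lay on the other side without overlap, by -0.48 ± 0.10 (SE, limma adjusted p = 0.240), and its dimmer probe set gave -0.15 ± 0.17 (SE). Fads2 and Elovl6, a desaturase and an elongase, differed by 0.28 ± 0.10 and 0.41 ± 0.18 (SE), without overlap for Fads2 and with overlap for Elovl6. The other 2 probe sets of Fads2 gave 0.14 and -0.02, and the mean of all its probe sets gave 0.13. The other 2 probe sets of Elovl6 gave 0.10 and 0.39.

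Of the isoprenoid branch 2 of 7 tested genes lay above control, 5 below and 0 past the threshold (median -0.04). Pdss2, a subunit of the enzyme that builds the ubiquinone side chain, differed by -0.51 ± 0.22 with its brightest probe set and by -0.0035 and 0.15 with the others. Ggps1, geranylgeranyl diphosphate synthase, differed by 0.23 ± 0.12 (SE) with groups that did not overlap, and by 0.12 without knockout replicate 3. Cholesterol export and esterification had 3 of 7 tested genes above control, 4 below and 0 past the threshold (median -0.03). Among these Apoe, the apolipoprotein made by macrophages and many other cells, had 8.94, 10.71 and 11.07 in controls and 10.76, 10.80 and 10.26 in knockouts. The low value of control replicate 1 came with a mean centred level of 10 macrophage markers of -1.37 on that array, against -0.40 to 0.65 on the other 5. Without control replicate 1 the difference of Apoe turned from 0.37 to -0.28.

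Among the 10908 other tested genes, those whose level over the 6 arrays was most like the mean of the 8 were Pts, Twsg1, Uxs1, Sephs2 and Rbmx2, with Pearson's r of 0.98, 0.98, 0.97, 0.96 and 0.96. The most opposed were Coq10a, Sec14l2 and Gpatch2l, with r of -0.99, -0.97 and -0.97. In all, 71 genes had r above 0.9 and 62 below -0.9; over 6 arrays such values describe these arrays only.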

How the data were processed

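The authors deposited intensities, linear values with 1 for each probe set on each array. Per the submitters' processing notes they used GCOS, software of the array maker, and no version is named. How background was corrected, probes were summarised and arrays were scaled is not stated in the labels, and detection calls were not used. Precision is limited by the number of arrays.

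From these, log2(signal + 16) was quantile normalised over 6 arrays, without 64 control probe sets. The annotation named 1 gene for 34945 probe sets, several for 932 (not named) and none for 9160; 34741 identifiers took the current RefSeq symbol. The brightest probe set by mean stood for its gene, and the lowest 40% of 18193 genes were left out, leaving 10916. Knockout and control were compared by limma 3.58.1 in R 4.3.3 (lmFit, eBayes with trend, 2-sided, Benjamini-Hochberg at 0.05), without covariates. The same fit over all single-gene probe sets, unfiltered, gave the values per probe set. The limma fit and the mean over genes were tried on simulated data with planted changes. Normalisation, probe set choice and the level filter were not simulated.

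The genes and lists were chosen with earlier results of these data known. Named are the 8 genes, genes of the fixed pathway lists by smallest p, Esr1, defining markers, and the 5 genes most and 3 least like the mean of the 8, passing over unnamed transcripts. Alternatives covered scaling, the added constant, level filter, probe set choice, array weights, trend, a replicate block and leaving out each array. No label says that the replicate numbers pair the arrays. Deviations of same-numbered arrays from their group means correlated by -0.38, 0.10 and -0.04, and 3 such values cannot exclude a pairing.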

Additional observations from a re-analysis of the deposited data

How the results depend on the processing

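The differences of the 8 genes kept their direction and stayed short of the threshold in all 135 values recomputed under 17 alternatives, with a smallest adjusted p of 0.215 (limma, Hmgcs1 without control replicate 1); Lss fell under the filter of 60%. Their median ran from 0.25 (mean of all probe sets) to 0.48 (deposited scaling) and from 0.20 to 0.46 with 1 array left out. The number of these genes without overlap was 2 to 6 with 1 array left out, where 12.7% to 16.1% of all tested genes showed this. With the deposited scaling 30 genes of the table were higher (0.275% of those tested) and 0 lower, 76.4% lay above control and the median of all genes was 0.14. With 1 array left out, 0 to 86 genes were higher and 0 to 212 lower, with calls only without control replicate 2 (0.788% and 1.94% of those tested). With the replicate number as a block, 0 genes were higher and 0 lower, no call changed, and not every array correlated best with its own number. Brightest probe sets without an x or s mark, an alternative chosen after the data were seen, gave 0.41 for Fdft1 and 0.10 for Hsd17b7. Of 482 values of 29 other named genes, Hsd17b7 passed once and 10 values reversed: Srebf2 (0.050) and Nus1 (0.00090) with the mean of all probe sets, Vldlr with the deposited scaling (0.045), and 7 with 1 array left out, where Srebf2 ran from -0.31 to 0.28, Apoe from -0.28 to 0.78, Srebf1 from -0.033 to 0.15, Abcg1 from -0.39 to 0.11, Fntb from -0.00026 to 0.44 and Scap from -0.064 to 0.24. The brightest probe set was chosen anew in each setting. For Srebf2 the 2 probe sets were close in level. Their control and knockout means were 6.48 and 6.30, and 6.23 and 6.51 for the one that gave 0.28 over all 6 arrays. Its values above 0 with 1 array left out can therefore come from a switch of probe set. The cause of the other reversals was not tested. Dim probe sets, such as those of Lss, limit what can be read.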
